A study of Mus musculus with 18 samples.

Results

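The 46 genes described here are antiviral interferon-stimulated genes (ISGs) that belong to none of the large GBP, IRG, IFIT, OAS, PYHIN, SLFN and TRIM families. They were matched by name among the 20615 genes counted, and the rule used no measured value. The list was, however, chosen with earlier results of these data known. All 46 had a row in the count table, and all 46 were among the 15789 genes that passed the filter on low counts. RNA was sequenced from bone marrow-derived macrophages (BMDMs), which were grown for 7 days with M-CSF from L929 cell supernatant, out of the marrow of mice aged 7 to 12 weeks. The mice were B6 (C57BL/6) or SjSS (C57BL/6.NOD-Aec1Aec2), a model of Sjögren's syndrome in which the *Aec1* and *Aec2* intervals of the NOD mouse were bred onto the B6 background. BMDMs of each strain got no addition (control), apoptotic cells (AC) or CpG, a DNA oligonucleotide that stimulates endosomal Toll-like receptors, with 3 samples in each of the 6 groups. ACs were thymocytes killed with dexamethasone, added at 5 per BMDM for 2 h and washed off. A further 3 h of culture followed by the labels, and a longer time by the authors' methods. CpG was given at 1 µM for 6 h, and whether these samples were also washed and cultured further is not clear. In all 6 groups L929 supernatant was reduced to 5% before treatment. The strain of the thymocytes that each sample received is not given, and nor is which mouse gave which sample. Control, AC and CpG samples of a strain may come from the same mice, and the p values measure the spread between these samples.

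ISGs are switched on when type I interferon binds its receptor and its kinases activate transcription factors, among them STAT2 and IRF9, that enter the nucleus and bind a DNA element called the ISRE. Their products block separate steps of viral growth, from entry and RNA copying to protein synthesis and budding, and several of them feed back on interferon signalling. In macrophages the same genes respond to interferon that the cells themselves release after Toll-like receptors or cytosolic sensors of nucleic acid are engaged.

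Estimated counts per sample summed to between 30688336 and 57139662, with a median of 47912525, and levels are given as CPM, counts scaled to a common total with TMM factors. The macrophage markers *Adgre1*, *Itgam*, *Csf1r*, *Cd68*, *Mertk*, *Lyz2* and *Fcgr1* were present throughout and summed to between 14835 and 22812 CPM. The 11 T-lineage genes looked at, markers of the thymocytes that were fed, summed to 7.91 to 9.80 CPM in control B6 and 4.37 to 4.84 CPM in AC treated B6 BMDMs, and to 10.1 to 11.5 CPM in control SjSS and 13.2 to 18.04 CPM in AC treated SjSS BMDMs. Without *Cd4* and *Lck*, the remaining 9 summed to 0.0961 to 0.178 CPM in control B6 and 0.662 to 1.05 CPM in AC treated B6 BMDMs, and to 0.0887 to 0.461 CPM in control SjSS and 0.292 to 0.646 CPM in AC treated SjSS BMDMs. The sum of 11 was thus lower and the sum of 9 higher with ACs in B6 BMDMs. The 5 dendritic cell genes other than *Bst2*, which is itself an ISG, summed to 0.849 to 0.980 CPM in control and 1.19 to 1.63 CPM in AC treated B6 BMDMs, and to 0.858 to 0.979 CPM in control and 3.09 to 4.02 CPM in AC treated SjSS BMDMs. These values move with the AC and strain groups compared, and their part in the results was not tested. In bulk RNA, a change in the number of cells that express a gene and a change in the RNA of each cell cannot be told apart.

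The CpG treated libraries stood apart from each other on the 46 genes. Among the CpG treated B6 samples replicate 2 was the highest for 43 of the 46 genes and replicate 1 the lowest for 40, and the ratio of highest to lowest sample had a median of 1.35 over the 46 genes against 1.19 over 15440 genes. In CpG treated SjSS BMDMs replicate 3 was the highest for 44 genes and replicate 2 the lowest for 40, with a median ratio of 1.38 against 1.18 over 15584 genes. AC treated SjSS samples lay closer together, with a median ratio of 1.09 for the 46 genes. Results for CpG are therefore also given without these libraries.

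Every one of the 46 genes rose after ACs in SjSS BMDMs, whereas in B6 BMDMs 37 rose, most of them by less than the fold threshold used below. Summed over the 46 genes, the level was 3122, 3234 and 3360 CPM in control samples of B6 and 5697, 6216 and 6144 CPM in those given ACs. In SjSS BMDMs the sum was 3957, 4269 and 4083 CPM without treatment and 39883, 38635 and 41134 CPM with ACs. By this sum AC treated samples were above control samples in both strains, and all AC treated SjSS samples were far above all others. *Rsad2* and *Cmpk2* weigh heavily in it, with means of 13463 and 7031 CPM in AC treated and 53.7 and 22.2 CPM in control SjSS BMDMs. Genes were tested by edgeR's quasi-likelihood method with Benjamini-Hochberg adjustment over 15789 genes, and rose or fell here means an adjusted p under 0.05. A gene is named as called where its log2 fold change also exceeded 1.3 in size, and values after ± are SEs for log2 fold changes and SDs for levels.

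**Figure D1:**
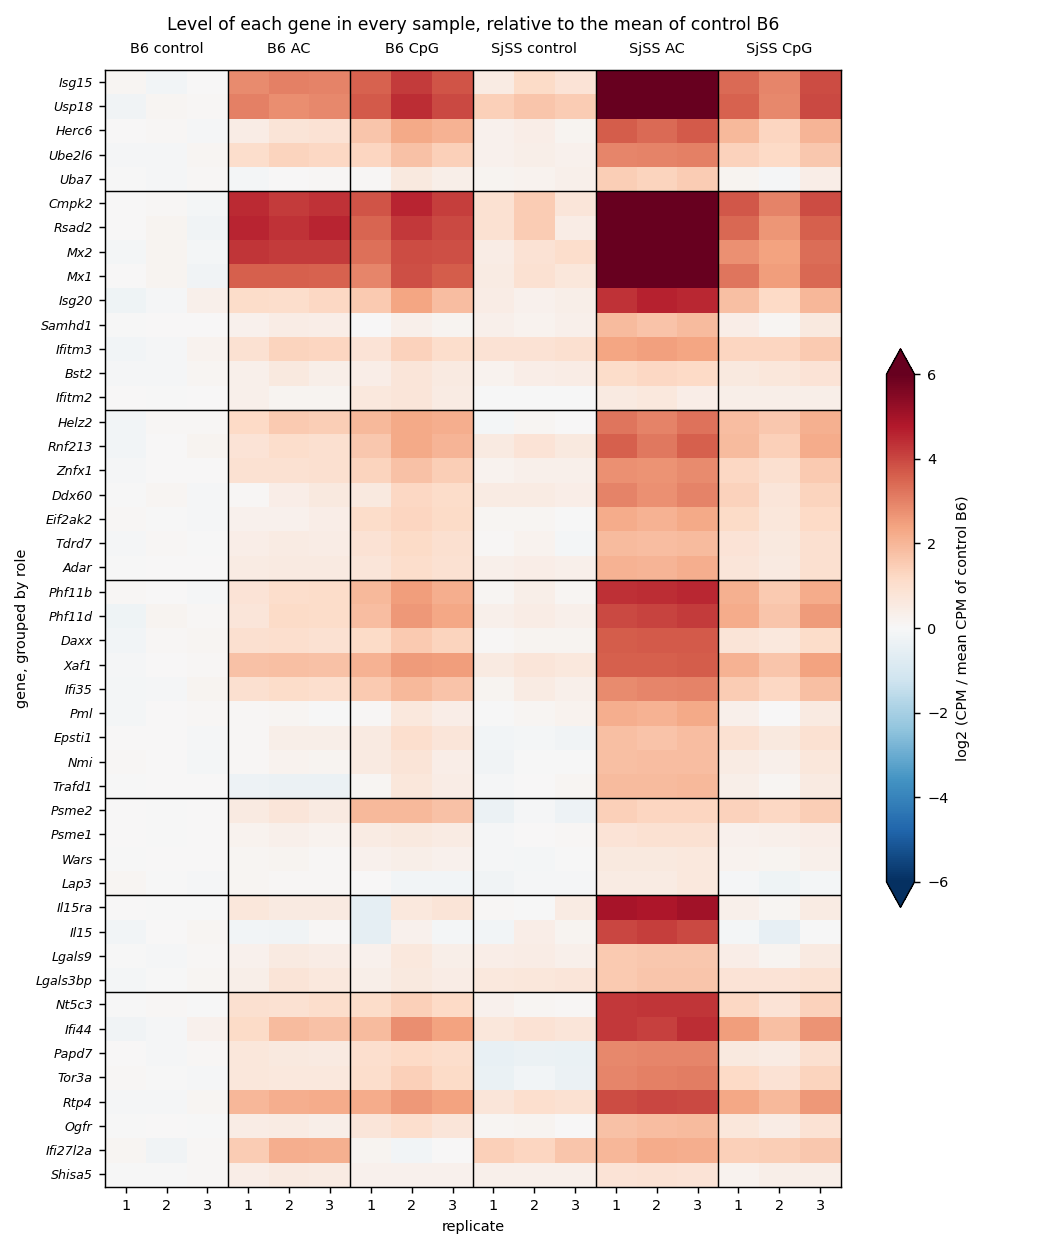
Level of each of the 46 genes (rows, grouped by role) in each of the 18 samples (columns), as log2 of the CPM over the mean CPM of control B6 BMDMs, with colours ending at 6 on either side. The AC treated SjSS columns are the darkest for most rows, and for *Rsad2*, *Cmpk2*, *Mx1*, *Mx2*, *Isg15* and *Usp18* they lie past the end of the scale.

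In the AC response of B6 BMDMs, 11 of the 46 genes were called higher and 0 lower, where 2.43% of all tested genes were called higher and 2.04% lower. At any size of change 37 rose and 1, *Trafd1*, fell, where 20.0% and 18.3% of all tested genes did, and the median log2 fold change over the 46 genes was 0.63 against 0.00 over all tested genes. In the AC response of SjSS BMDMs, 36 were called higher and 0 lower against 7.09% of all tested genes called higher and 5.83% lower. All 46 rose, by log2 fold changes of 0.54 to 8.32 with a median of 2.54, where the median of all tested genes was -0.02 and 28.6% rose. For each of the 46 genes every AC treated SjSS sample was above every control SjSS sample, as was so for 31.5% of all tested genes. The AC treated SjSS group had the highest mean CPM of the 6 groups for 44 genes, and CpG treated B6 BMDMs had it for *Psme2* and *Ifitm2*.

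The AC response itself differed between strains for most of the genes. In the interaction of strain and AC, which subtracts the B6 log2 fold change from that of SjSS, 30 of the 46 were called higher and 0 lower, where 4.76% of all tested genes were called higher and 2.77% lower. At any size 43 were higher, 1 was lower, *Ifi27l2a*, and *Ifitm3* and *Shisa5* did not pass the test. Over all tested genes 19.6% were higher and 18.3% lower at any size, and the median difference was 1.75 for the 46 genes against -0.01 over all tested genes. Genes called higher after ACs in both strains numbered 10, namely *Cmpk2*, *Rsad2*, *Mx1*, *Mx2*, *Isg15*, *Usp18*, *Rtp4*, *Xaf1*, *Ifi44* and *Helz2*. A further 26 were called in SjSS and not in B6 BMDMs, and 1, *Ifi27l2a*, in B6 and not in SjSS BMDMs. The other 9, *Bst2*, *Ifitm2*, *Lap3*, *Lgals3bp*, *Lgals9*, *Psme1*, *Shisa5*, *Uba7* and *Wars*, were called in neither strain.

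**Figure D2:**
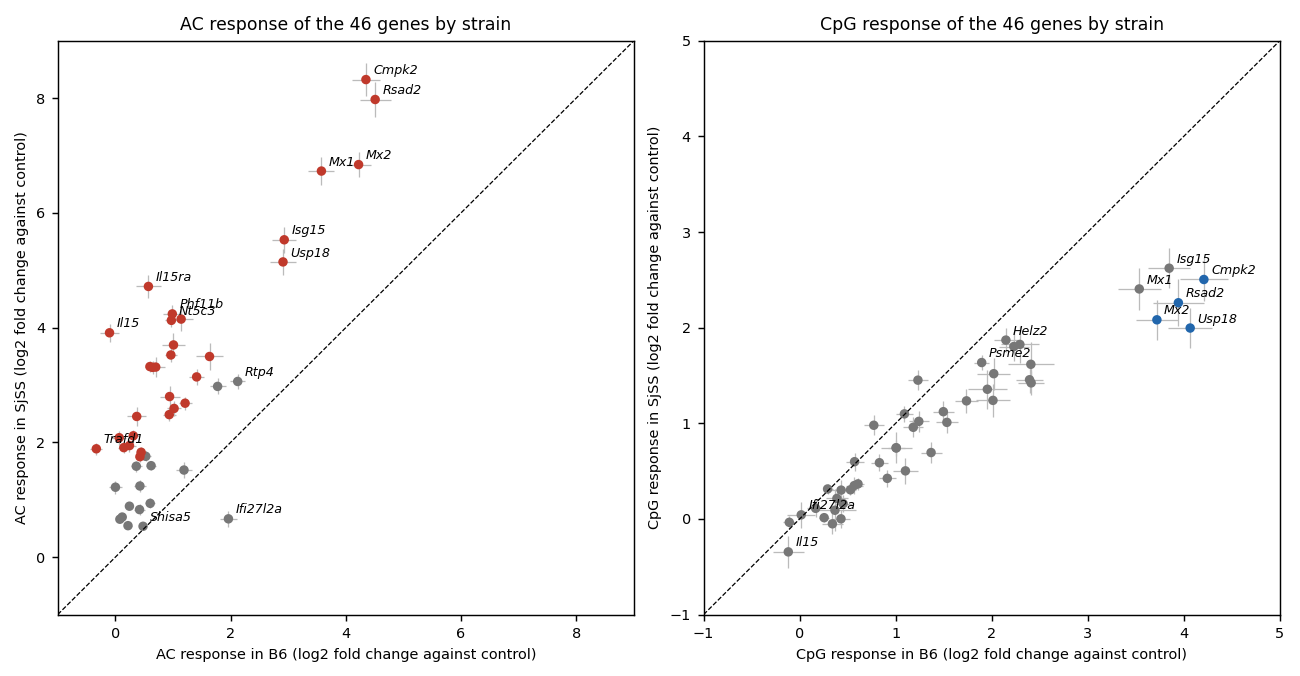
Log2 fold change against control of each of the 46 genes in B6 (horizontal axis) and SjSS BMDMs (vertical axis), for ACs on the left and CpG on the right, with bars of 1 SE and a dashed line of equal response. Red and blue points are genes whose response was called higher or lower in SjSS than in B6 BMDMs: 30 lie above the line for ACs, and 4 lie under it for CpG. *Ifi27l2a* lies under the line for ACs but was not called and is grey.

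The 5 genes of the ISG15 system were all higher in AC treated SjSS than in AC treated B6 BMDMs. ISG15 is a small protein that is attached to other proteins in the way ubiquitin is, and free ISG15 is also secreted. *Isg15* was at 9.14, 7.51 and 8.38 CPM in control, 59.4, 67.2 and 65.0 in AC treated and 95.8, 153 and 114 in CpG treated B6 BMDMs. SjSS BMDMs had 11.9, 18.4 and 14.6 CPM untreated, 654, 712 and 697 with ACs and 87.0, 63.0 and 124 with CpG. No AC treated sample overlapped a control sample in either strain, and the AC treated SjSS samples were about an order of magnitude above the AC treated B6 samples. *Isg15* (chr4:156199424-156200819) rose by a log2 fold change of 2.93 ± 0.21 with ACs in B6 and 5.53 ± 0.23 in SjSS BMDMs, and the difference between them was 2.60 ± 0.29 (edgeR, adjusted p = 8.4e-07).

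UBA7, UBE2L6 and HERC6 are the activating, conjugating and ligating enzymes that attach ISG15. *Uba7* was at 62.3, 60.2 and 66.5 CPM in control, 59.0, 64.9 and 65.5 in AC treated and 65.3, 93.9 and 80.6 in CpG treated B6 BMDMs. Control SjSS BMDMs had 70.6, 73.7 and 78.7 CPM, those given ACs 178, 159 and 182 and those given CpG 70.8, 60.7 and 83.7. *Uba7* (chr9:107975505-107984061) did not separate AC treated from control B6 samples, with a log2 fold change of 0.00 ± 0.11 and an adjusted p of 0.99 by edgeR, and it rose by 1.22 ± 0.11 in SjSS BMDMs. *Ube2l6* was at 18.3, 18.2 and 20.3 CPM in control, 38.9, 48.5 and 44.2 in AC treated and 45.7, 63.3 and 51.6 in CpG treated B6 BMDMs. Levels in SjSS BMDMs were 23.0, 24.3 and 22.7 CPM in control, 146, 151 and 152 in AC treated and 49.5, 43.6 and 59.0 in CpG treated samples. *Ube2l6* (chr2:84798828-84810336) was higher in every AC and CpG treated sample than in every control sample of its strain, and its AC response was 1.21 ± 0.11 in B6 and 2.68 ± 0.11 in SjSS BMDMs. *Herc6* was at 23.3, 24.2 and 22.1 CPM in control, 31.9, 39.3 and 42.0 in AC treated and 73.4, 112 and 97.9 in CpG treated B6 BMDMs. In SjSS BMDMs the level was 28.2, 30.5 and 26.1 CPM in control, 292, 247 and 301 in AC treated and 90.05, 55.8 and 96.4 in CpG treated samples. *Herc6* (chr6:57581000-57664633) stood highest in AC treated SjSS samples, whereas among B6 samples it was highest with CpG, with AC responses of 0.70 ± 0.17 in B6 and 3.31 ± 0.18 in SjSS BMDMs.

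USP18 removes ISG15 from proteins and also sits at the interferon receptor, where it damps signalling. *Usp18* was at 4.68, 5.97 and 5.75 CPM in control, 44.1, 38.4 and 40.3 in AC treated and 70.4, 119.7 and 84.1 in CpG treated B6 BMDMs. SjSS BMDMs had 14.8, 17.4 and 15.5 CPM untreated, 526, 567 and 586 with ACs and 63.5, 40.5 and 85.2 with CpG. *Usp18* (chr6:121245906-121270918) was higher in every control SjSS sample than in every control B6 sample, and CpG treated samples of the strains overlapped. The AC response was 2.91 ± 0.22 in B6 and 5.15 ± 0.23 in SjSS BMDMs, a difference of 2.24 ± 0.30 (edgeR, adjusted p = 8.9e-06). Of the 5 genes of the ISG15 system 4 were called in the interaction of strain and AC, and *Uba7*, at 1.22 ± 0.16, passed the test below the fold threshold.

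**Figure D3:**
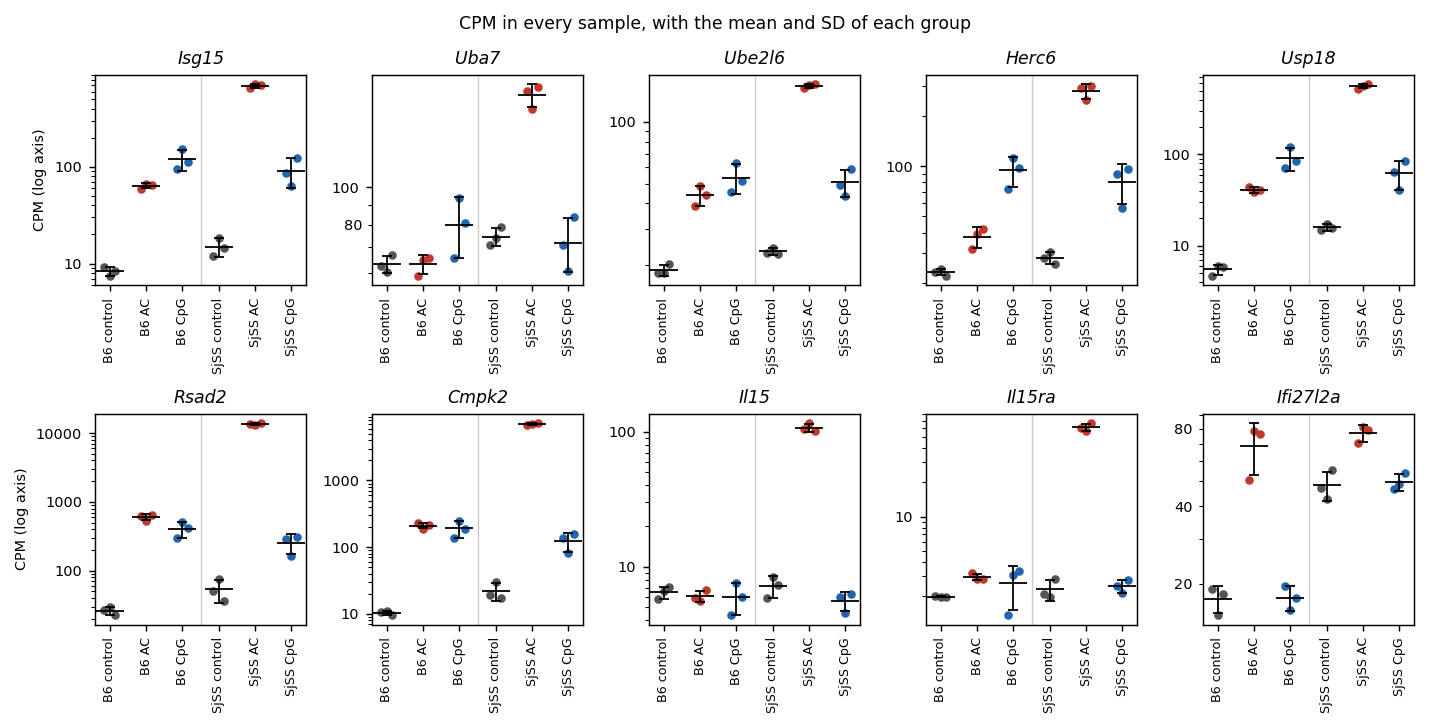
CPM of the 5 genes of the ISG15 system and of *Rsad2*, *Cmpk2*, *Il15*, *Il15ra* and *Ifi27l2a* in each sample (points) on log axes, with the mean and SD of each group of 3 (bars) and control, AC and CpG in grey, red and blue. AC treated SjSS samples stand above all others for each gene but *Ifi27l2a*, for which they overlap AC treated B6 samples and for which control and CpG treated SjSS samples lie above the matching B6 samples.

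The promoters of the genes show where they do and do not share the letters of the ISRE. RefSeq gives a promoter window of 250 bases before to 50 after the start for 38 of the 46 genes (build GRCm38.p6, *Papd7* under the symbol *Tent4a*), and for the 9 genes with several windows the one nearest to the deposited start was taken. The core letters GAAANNGAA were found on either strand in 13 of the 38 (34.2%) and in 8.56% of all 32851 windows, and those of the gamma-activated site, TTCNNNGAA, in 6 of the 38 (15.8%) and in 8.3% of all windows. In any of its windows, 9.76% of all 27025 genes held the ISRE core, and *Adar*, *Tdrd7* and *Shisa5*, counted here as without it, held it in a window other than the one taken. Both were found in 3 windows, those of *Bst2*, *Ifitm3* and *Eif2ak2*, of which the first pair hold them overlapping, and neither in 22. The 200 bases before the start are printed 5′ to 3′ for the ISG15 system genes that have a window, and, chosen after their values were seen, for *Rsad2*, *Phf11b* and *Il15ra*, as large AC responders that hold a core. Capitals mark ISRE cores on either strand, so that a core on the other strand appears as its reverse complement.
Isg15 (chr4:156200819-156201018, minus strand): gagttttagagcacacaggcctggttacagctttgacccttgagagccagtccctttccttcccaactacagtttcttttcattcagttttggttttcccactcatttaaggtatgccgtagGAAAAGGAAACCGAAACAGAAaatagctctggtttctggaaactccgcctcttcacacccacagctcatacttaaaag
Ube2l6 (chr2:84798628-84798827, plus strand): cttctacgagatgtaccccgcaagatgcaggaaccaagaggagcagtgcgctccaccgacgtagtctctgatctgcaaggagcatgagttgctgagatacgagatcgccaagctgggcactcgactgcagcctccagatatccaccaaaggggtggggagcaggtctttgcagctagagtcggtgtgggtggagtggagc
Uba7 (chr9:107975367-107975566, plus strand): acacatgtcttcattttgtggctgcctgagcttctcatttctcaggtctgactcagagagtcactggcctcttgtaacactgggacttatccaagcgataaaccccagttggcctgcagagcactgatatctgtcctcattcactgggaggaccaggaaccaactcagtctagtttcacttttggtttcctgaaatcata
Herc6 (chr6:57580792-57580991, plus strand): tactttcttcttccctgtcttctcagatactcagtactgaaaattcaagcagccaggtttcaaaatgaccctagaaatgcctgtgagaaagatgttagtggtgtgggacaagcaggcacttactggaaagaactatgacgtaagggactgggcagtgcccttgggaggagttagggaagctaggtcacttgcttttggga
Rsad2 (chr12:26456453-26456652, minus strand): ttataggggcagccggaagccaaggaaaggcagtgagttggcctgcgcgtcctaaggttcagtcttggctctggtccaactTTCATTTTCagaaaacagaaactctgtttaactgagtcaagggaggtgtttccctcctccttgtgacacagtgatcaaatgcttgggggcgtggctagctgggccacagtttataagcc
Phf11b (chr14:59341331-59341530, minus strand): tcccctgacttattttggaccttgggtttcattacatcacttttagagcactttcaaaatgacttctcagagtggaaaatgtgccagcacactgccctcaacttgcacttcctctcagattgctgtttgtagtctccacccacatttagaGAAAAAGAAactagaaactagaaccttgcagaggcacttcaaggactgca
Il15ra (chr2:11705093-11705292, plus strand): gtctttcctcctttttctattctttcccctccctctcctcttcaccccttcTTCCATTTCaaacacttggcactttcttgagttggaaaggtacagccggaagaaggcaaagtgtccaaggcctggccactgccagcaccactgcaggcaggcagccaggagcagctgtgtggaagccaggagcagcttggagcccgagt

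*Isg15* holds 3 overlapping cores, which begin 78, 72 and 66 bases before the start, *Phf11b* holds 1 at 50, *Rsad2* 1 at 119 and *Il15ra* 1 at 149 bases before it, and *Ube2l6*, *Uba7* and *Herc6* hold none in the window. Of the genes with a window, 9 of the 13 with a core and 21 of the 25 without were called higher after ACs in SjSS BMDMs, with median log2 fold changes of 2.12 and 2.48. *Cmpk2*, with the largest AC response in SjSS BMDMs, has no core in its window. A window without these letters says nothing of the factors that bind there. The RefSeq start sites used for *Rnf213*, *Nt5c3*, *Papd7* and *Psme1* lie 3001, 22047, 754 and 371 bases from the start of the gene in the deposited table.

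The 9 restriction factors, which act on viruses or on the nucleotides they need, held the 4 largest AC responses of the 46 genes in both strains. RSAD2 (viperin) turns CTP into a chain terminator for viral polymerases and CMPK2 is the nucleotide kinase encoded beside it. *Rsad2* was at 26.8, 29.5 and 22.7 CPM in control, 631, 532 and 636 in AC treated and 298, 504 and 414 in CpG treated B6 BMDMs. Control SjSS BMDMs had 49.99, 75.3 and 35.9 CPM, those given ACs 13433, 13142 and 13814 and those given CpG 291, 164 and 313. *Rsad2* (chr12:26442753-26456453) was higher in every AC treated than in every CpG treated B6 sample, by a small margin, whereas in SjSS BMDMs the AC treated samples were more than an order of magnitude above the CpG treated samples. *Cmpk2* was at 10.5, 10.97 and 9.59 CPM in control, 230.0, 189.9 and 212 in AC treated and 139, 249 and 186 in CpG treated B6 BMDMs. Levels in SjSS BMDMs were 19.4, 29.9 and 17.2 CPM in control, 6870.1, 7055 and 7167 in AC treated and 136, 81.3 and 156 in CpG treated samples. *Cmpk2* (chr12:26469204-26479836) overlapped between AC and CpG treated B6 samples and not between AC and CpG treated SjSS samples. The AC responses were 4.51 ± 0.27 and 7.98 ± 0.31 for *Rsad2* and 4.35 ± 0.25 and 8.32 ± 0.29 for *Cmpk2*, in B6 and SjSS BMDMs in turn, and the interactions were 3.47 ± 0.34 and 3.97 ± 0.32 (edgeR, adjusted p = 1.9e-07 and 1.4e-08).

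MX1 and MX2 are dynamin-like GTPases that trap viral components, and the *Mx1* gene of B6 and most laboratory mice carries a deletion that leaves its protein without function. *Mx2* was at 1.41, 1.71 and 1.40 CPM in control, 29.5, 27.3 and 27.2 in AC treated and 14.998, 22.4 and 22.1 in CpG treated B6 BMDMs. In SjSS BMDMs the level was 2.06, 2.75 and 3.12 CPM in control, 313, 296 and 298 in AC treated and 10.2, 7.96 and 15.2 in CpG treated samples. *Mx2* (chr16:97535308-97560901) was low in control samples of both strains and separated every treated from every control sample. *Mx1* had a mean of 7.99 ± 1.05 CPM in control and 95.2 ± 2.42 CPM in AC treated samples of B6, and of 13.1 ± 2.06 and 1378 ± 42.9 CPM in those of SjSS (SD, n = 3). The AC responses were 3.58 ± 0.23 and 6.73 ± 0.25 for *Mx1* and 4.22 ± 0.21 and 6.84 ± 0.21 for *Mx2*. *Isg20*, an RNA exonuclease, rose by 1.14 ± 0.21 in B6 and 4.15 ± 0.20 in SjSS BMDMs.

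The other restriction factors changed less. *Ifitm2* was at 143, 140.1 and 146 CPM in control, 177, 161 and 162 in AC treated and 219.7, 235 and 199 in CpG treated B6 BMDMs. SjSS BMDMs had 142, 142 and 139 CPM untreated, 209.8, 221 and 188 with ACs and 179.9, 180.4 and 185 with CpG. *Ifitm2* (chr7:140954837-140955988), which encodes a membrane protein that hinders viral fusion, had its highest mean in CpG treated B6 BMDMs and the smallest AC response of the group in SjSS BMDMs, 0.55 ± 0.06. Its neighbour *Ifitm3* rose by 1.19 ± 0.13 in B6 and 1.52 ± 0.13 in SjSS BMDMs, and the difference of 0.33 ± 0.19 did not pass the test (edgeR, adjusted p = 0.19, 95% interval -0.07 to 0.72). *Bst2*, the tetherin that holds budding virions on the cell, rose by 0.42 ± 0.09 and 0.83 ± 0.09, and *Samhd1*, which breaks down deoxynucleotides, by 0.36 ± 0.09 and 1.58 ± 0.10. Of the 9 restriction factors, 4 were called after ACs in B6, 7 in SjSS BMDMs, and 5 in the interaction.

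The 7 genes for proteins that bind double-stranded RNA, edit it or act as helicases, with *Tdrd7* and *Rnf213*, were all called higher after ACs in SjSS BMDMs, and 1, *Helz2*, in B6 BMDMs. *Helz2* was at 122, 140.4 and 142 CPM in control, 306, 395 and 373 in AC treated and 518, 661 and 611 in CpG treated B6 BMDMs. Control SjSS BMDMs had 125, 145 and 139 CPM, those given ACs 1249, 1070.5 and 1293 and those given CpG 487, 414 and 595. *Helz2* (chr2:181227615-181242028), which encodes a helicase, was raised in all treated samples of both strains, with the AC treated SjSS samples highest. *Adar* was at 88.9, 91.4 and 91.0 CPM in control, 128, 134 and 129 in AC treated and 151, 190.0 and 169.7 in CpG treated B6 BMDMs. Levels in SjSS BMDMs were 111, 119 and 110.5 CPM in control, 379, 368 and 406 in AC treated and 148, 132 and 178 in CpG treated samples. *Adar* (chr3:89715022-89753447), the deaminase that edits paired RNA, had the smallest AC response of the 7 in SjSS BMDMs and did not overlap between AC treated and control samples of either strain. The AC responses in B6 and SjSS BMDMs were 1.41 ± 0.12 and 3.14 ± 0.13 for *Helz2* and 0.53 ± 0.09 and 1.76 ± 0.09 for *Adar*. *Eif2ak2*, the kinase PKR that halts translation on sensing viral RNA, changed by 0.31 ± 0.10 and 2.12 ± 0.11, and *Rnf213*, a very large ubiquitin ligase, by 0.94 ± 0.17 and 2.80 ± 0.18. *Ddx60* did not pass the test in B6 BMDMs, at 0.37 ± 0.16, and rose by 2.45 ± 0.17 in SjSS BMDMs. *Znfx1* rose by 0.94 ± 0.11 and 2.48 ± 0.12 and *Tdrd7* by 0.45 ± 0.09 and 1.83 ± 0.09. Of the 7, 6 were called in the interaction and *Adar*, at 1.23 ± 0.12, passed the test below the fold threshold.

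The 9 genes of nuclear bodies and of transcription or signalling were all called after ACs in SjSS BMDMs, and *Xaf1* alone in B6 BMDMs. *Phf11b* was at 6.97, 6.68 and 6.25 CPM in control, 11.6, 13.6 and 14.3 in AC treated and 25.5, 38.0 and 30.2 in CpG treated B6 BMDMs. In SjSS BMDMs the level was 7.22, 8.55 and 7.20 CPM in control, 139, 141 and 151 in AC treated and 29.3, 19.6 and 30.6 in CpG treated samples. *Phf11b* (chr14:59320964-59341352), which encodes a protein with a PHD finger, was between 6.25 and 8.55 CPM in all control samples and stood highest by far in AC treated SjSS samples. *Trafd1* was at 126, 129 and 129 CPM in control, 103, 102 and 101 in AC treated and 139, 207 and 172 in CpG treated B6 BMDMs. SjSS BMDMs had 122.97, 131 and 139 CPM untreated, 483, 480.1 and 494 with ACs and 162, 138 and 185 with CpG. *Trafd1* (chr5:121371725-121385633), whose product restrains Toll-like receptor signalling, was lower in all AC treated than in all control B6 samples and higher in all AC treated than in all control SjSS samples. Its response was -0.33 ± 0.11 in B6 (edgeR, adjusted p = 0.019) and 1.89 ± 0.11 in SjSS BMDMs, so that both directions passed the test, and the difference was 2.22 ± 0.15 (edgeR, adjusted p = 1.6e-09). The fall in B6 BMDMs did not pass the test without replicate 2, or without replicate 3, of AC treated B6.

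*Pml*, which builds the nuclear bodies named after it, was at 50.5 ± 3.10 CPM in control and 52.9 ± 2.29 CPM in AC treated B6 BMDMs and at 53.8 ± 3.77 and 228 ± 14.01 CPM in SjSS BMDMs (SD, n = 3). Its AC response was 0.07 ± 0.12 in B6, short of the threshold, and 2.08 ± 0.12 in SjSS BMDMs. *Daxx*, a histone chaperone of those bodies, rose by 0.96 ± 0.11 and 3.52 ± 0.12. The binding partners *Nmi* and *Ifi35* changed by 0.15 ± 0.09 and 1.02 ± 0.12 in B6 and by 1.91 ± 0.09 and 2.59 ± 0.13 in SjSS BMDMs, of which the B6 value of *Nmi* did not pass the test. *Phf11d* rose by 1.01 ± 0.20 and 3.70 ± 0.20 and *Xaf1*, which antagonises an inhibitor of cell death, by 1.78 ± 0.14 and 2.98 ± 0.14. *Epsti1* was at 0.25 ± 0.11 in B6, not past the test, and rose by 1.94 ± 0.11 in SjSS BMDMs. Of the 9, 8 were called in the interaction, and *Xaf1* was past the test at 1.20 ± 0.19.

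Genes of antigen processing and of tryptophan tRNA charging had the weakest AC responses. *Psme2* was at 17.5, 16.8 and 17.5 CPM in control, 25.3, 28.9 and 25.5 in AC treated and 66.8, 67.1 and 59.2 in CpG treated B6 BMDMs. Control SjSS BMDMs had 13.6, 16.2 and 13.9 CPM, those given ACs 46.6, 42.5 and 42.5 and those given CpG 45.5, 41.4 and 48.3. *Psme2* (chr14:55587441-55591114), a subunit of the PA28 activator of the proteasome, stood highest in CpG treated B6 samples, and AC and CpG treated SjSS samples overlapped. *Lap3* was at 51.0, 46.1 and 44.4 CPM in control, 50.3, 49.7 and 49.5 in AC treated and 47.6, 41.9 and 41.8 in CpG treated B6 BMDMs. Levels in SjSS BMDMs were 40.8, 44.3 and 45.5 CPM in control, 66.3, 67.3 and 73.0 in AC treated and 44.6, 39.3 and 43.5 in CpG treated samples. *Lap3* (chr5:45493374-45512692), an aminopeptidase that trims peptides, rose only in AC treated SjSS BMDMs among the 4 responses tested, where its samples did not overlap those of the control. The AC responses in B6 and SjSS BMDMs were 0.62 ± 0.08 and 1.59 ± 0.08 for *Psme2*, 0.24 ± 0.05 and 0.89 ± 0.05 for *Psme1*, the partner subunit, 0.08 ± 0.07 and 0.66 ± 0.07 for *Lap3* and 0.12 ± 0.05 and 0.70 ± 0.05 for *Wars*, the enzyme that loads tryptophan on its tRNA. *Psme2* was the only one of the 4 that was called in SjSS BMDMs, and *Lap3* and *Wars* did not pass the test in B6 BMDMs. All 4 were higher in the interaction at any size, with differences of 0.58 to 0.97, and 0 were called.

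IL-15 and its receptor chain had the most unequal AC responses of the 46 genes. IL15RA carries IL-15 to the cell surface and presents it to NK cells and CD8+ T cells, which depend on it. *Il15* was at 5.75, 6.63 and 7.03 CPM in control, 5.86, 5.54 and 6.71 in AC treated and 4.39, 7.62 and 6.02 in CpG treated B6 BMDMs. In SjSS BMDMs the level was 5.84, 8.46 and 7.32 CPM in control, 105, 115 and 102 in AC treated and 5.94, 4.57 and 6.33 in CpG treated samples. *Il15* (chr8:82331632-82403223) overlapped between control, AC and CpG treated B6 samples, and in SjSS BMDMs only the AC treated samples stood clear of the others. *Il15ra* was at 2.00, 1.98 and 1.97 CPM in control, 3.18, 2.84 and 2.85 in AC treated and 1.37, 3.06 and 3.35 in CpG treated B6 BMDMs. SjSS BMDMs had 2.08, 1.98 and 2.83 CPM untreated, 60.6, 57.03 and 66.0 with ACs and 2.47, 2.15 and 2.79 with CpG. *Il15ra* (chr2:11705290-11734318) was between 1.37 and 3.35 CPM in every sample but the AC treated SjSS samples. The AC response of *Il15* was -0.10 ± 0.16 in B6 and 3.91 ± 0.16 in SjSS BMDMs and that of *Il15ra* 0.57 ± 0.21 and 4.72 ± 0.20, and the differences were 4.01 ± 0.22 and 4.14 ± 0.29 (edgeR, adjusted p = 1.3e-10 and 2.2e-09).

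The other secreted proteins changed less. *Lgals3bp* was at 323, 348 and 373 CPM in control, 441, 600.1 and 546 in AC treated and 441, 521 and 467 in CpG treated B6 BMDMs. Control SjSS BMDMs had 540.4, 566 and 567 CPM, those given ACs 1029, 1092 and 1085 and those given CpG 614, 607 and 648. *Lgals3bp* (chr11:118392751-118402093), a secreted glycoprotein that binds galectins, was higher in every control SjSS than in every control B6 sample and had AC responses of 0.61 ± 0.09 and 0.94 ± 0.09. *Lgals9*, which encodes galectin-9, rose by 0.43 ± 0.10 and 1.24 ± 0.10.

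The last 8 genes have separate roles. *Nt5c3* was at 12.2, 12.7 and 11.9 CPM in control, 24.1, 22.8 and 25.3 in AC treated and 26.0, 32.9 and 28.1 in CpG treated B6 BMDMs. Levels in SjSS BMDMs were 14.7, 13.1 and 12.9 CPM in control, 235, 237 and 239 in AC treated and 29.1, 21.7 and 31.6 in CpG treated samples. *Nt5c3* (chr6:56882400-56923933), which encodes a pyrimidine nucleotidase, had AC treated SjSS samples close to each other and far above every other sample. *Shisa5* was at 235, 237 and 254 CPM in control, 319, 349 and 344 in AC treated and 285, 292 and 289 in CpG treated B6 BMDMs. In SjSS BMDMs the level was 297, 298 and 295 CPM in control, 427, 438 and 427 in AC treated and 283, 307 and 307 in CpG treated samples. *Shisa5* (chr9:109038565-109057778), which encodes a membrane protein linked to cell death, had the smallest AC response of the 46 genes in SjSS BMDMs. The AC responses in B6 and SjSS BMDMs were 0.97 ± 0.11 and 4.13 ± 0.11 for *Nt5c3* and 0.48 ± 0.05 and 0.54 ± 0.05 for *Shisa5*, whose difference of 0.06 ± 0.07 had a 95% interval of -0.09 to 0.20 (edgeR, adjusted p = 0.57). *Ifi44* rose by 1.63 ± 0.24 and 3.497 ± 0.24, *Rtp4* by 2.12 ± 0.13 and 3.06 ± 0.13 and *Ogfr*, an opioid growth factor receptor, by 0.43 ± 0.09 and 1.75 ± 0.09. *Tor3a*, a torsin ATPase of the endoplasmic reticulum, rose by 0.65 ± 0.10 and 3.31 ± 0.11 and *Papd7*, a poly(A) polymerase, by 0.60 ± 0.08 and 3.32 ± 0.09.

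*Ifi27l2a*, which encodes a small membrane protein of mitochondria, departed from the rest of the 46 genes. *Ifi27l2a* was at 19.1, 15.2 and 18.2 CPM in control, 50.4, 78.2 and 76.4 in AC treated and 19.7, 15.8 and 17.6 in CpG treated B6 BMDMs. SjSS BMDMs had 46.9, 42.9 and 55.1 CPM untreated, 70.6, 81.2 and 78.8 with ACs and 46.7, 48.7 and 54.0 with CpG. *Ifi27l2a* (chr12:103442167-103443681) was higher in every control and CpG treated SjSS sample than in the matching B6 samples, and AC treated samples of the strains overlapped. It rose by 1.96 ± 0.14 with ACs in B6 and 0.67 ± 0.13 in SjSS BMDMs, a difference of -1.29 ± 0.19 (edgeR, adjusted p = 2.9e-05) that lay just short of the fold threshold. With CpG its log2 fold change was 0.02 ± 0.14 in B6 and 0.04 ± 0.13 in SjSS BMDMs, and neither passed the test.

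CpG raised most of the 46 genes in both strains, in responses that share their control samples with those to ACs. Summed over the 46 genes, CpG treated B6 samples had 6513, 8833 and 7588 CPM and CpG treated SjSS samples 7085, 5844 and 8192 CPM, so that the strains overlapped. In the CpG response of B6 BMDMs, 20 of the 46 genes were called higher and 0 lower, where 5.86% of all tested genes were called higher and 6.88% lower. At any size 41 rose and 0 fell, where 28.1% and 29.8% of all tested genes did. In SjSS BMDMs 16 were called higher and 0 lower against 4.81% and 4.45% of all tested genes, and 36 rose and 0 fell at any size against 27.8% and 26.4%. The median log2 fold changes were 1.14 and 0.97, against -0.04 and -0.01 over all tested genes. Called in both strains were 15 genes, *Cmpk2*, *Rsad2*, *Mx1*, *Mx2*, *Isg15*, *Usp18*, *Herc6*, *Isg20*, *Helz2*, *Phf11b*, *Phf11d*, *Psme2*, *Ifi44*, *Rtp4* and *Xaf1*. *Daxx*, *Ifi35*, *Rnf213*, *Ube2l6* and *Znfx1* were called in B6 alone and *Tor3a* in SjSS alone, and of these 6 only the difference for *Daxx* passed the test (-0.67 ± 0.15, edgeR, adjusted p = 0.013). *Il15*, *Il15ra*, *Lap3*, *Ifi27l2a* and *Samhd1* passed the test in neither strain, and *Lgals3bp*, *Lgals9*, *Pml*, *Shisa5* and *Uba7* only in B6 BMDMs.

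The CpG response of 4 highly responsive genes was called weaker in SjSS than in B6 BMDMs. In the interaction of strain and CpG, 0 of the 46 genes were called higher and 4 lower, where 0.285% and 0.329% of all tested genes were called higher and lower. At any size 0 were higher and 11 lower, against 3.23% and 2.62% of all tested genes. That 11 became 18 with the replicate number as a block and 17 with the DESeq2 Wald test, and 6 when only the groups compared were fitted, whereas 4 were called in each of these fits. *Usp18* responded by 4.07 ± 0.23 in B6 and 2.00 ± 0.21 in SjSS BMDMs, a difference of -2.07 ± 0.30 (edgeR, adjusted p = 3.8e-04). The differences for *Cmpk2*, *Rsad2* and *Mx2* were -1.71 ± 0.32, -1.68 ± 0.34 and -1.64 ± 0.31 (edgeR, adjusted p = 0.0032, 0.0053 and 0.0040). These 4 genes began higher in control SjSS than in control B6 BMDMs, by log2 fold changes of 1.54 ± 0.23, 1.09 ± 0.24, 1.02 ± 0.24 and 0.81 ± 0.26, and both comparisons share their control samples. The other 7 that passed the test, at less than the fold threshold, were *Isg15* (-1.23), *Mx1* (-1.13), *Rtp4* (-0.99), *Xaf1* (-0.94), *Daxx* (-0.67), *Adar* (-0.49) and *Shisa5* (-0.24).

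Which library was left out changed how many genes passed, but not these 4. *Usp18*, *Cmpk2*, *Rsad2* and *Mx2* were called lower in the interaction of strain and CpG whichever of the 12 libraries was removed. Without replicate 1 of CpG treated B6, or without replicate 3 of CpG treated SjSS, *Isg15* and *Mx1* were called as well, and 15 and 18 genes passed the test. Without replicate 2 of either CpG group 8 genes passed. In CpG treated SjSS BMDMs the count of genes called higher was 13 without replicate 3 and 18 without replicate 2, and in CpG treated B6 BMDMs it was 22 without replicate 1 and 19 without replicate 2.

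Control BMDMs of the strains differed by less than the fold threshold on most of the genes. In control SjSS against control B6 BMDMs 2 of the 46 were called higher and 0 lower, where 1.3% of all tested genes were called higher and 0.716% lower, and the median log2 fold change was 0.27 against -0.01. The called genes were *Usp18* at 1.54 ± 0.23 and *Ifi27l2a* at 1.47 ± 0.14 (edgeR, adjusted p = 1.0e-04 and 7.7e-07). At any size 17 were higher in SjSS BMDMs, where 9.04% of all tested genes were. Among them were *Cmpk2* (1.09), *Rsad2* (1.02), *Rtp4* (0.90), *Ifitm3* (0.89), *Isg15* (0.83), *Mx2* (0.81), *Ifi44* (0.76) and *Mx1* (0.70). *Papd7*, *Tor3a* and *Psme2* were lower, at -0.40, -0.30 and -0.25, where 10.6% of all tested genes were lower at any size. For 26 of the 46 genes every control SjSS sample was above every control B6 sample, as was so for 16.9% of all tested genes. For 4 genes every control SjSS sample was below, as was so for 17.5%. Leaving out 1 control library at a time, 10 to 16 genes were higher and 1 to 3 lower at any size.

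With ACs the strains differed on nearly the whole list and with CpG on little of it. AC treated SjSS BMDMs had 35 of the 46 genes called higher than AC treated B6 BMDMs and 0 lower, where 6.24% of all tested genes were called higher and 2.69% lower. At any size 45 were higher, where 24.0% of all tested genes were, and the median was 1.86 against -0.05. The largest differences were those of *Cmpk2* (5.06 ± 0.25), *Rsad2* (4.49 ± 0.27), *Il15ra* (4.37 ± 0.19) and *Il15* (4.16 ± 0.16). *Ifi27l2a*, at 0.17 ± 0.13, was the only one of the 46 that did not pass the test (edgeR, adjusted p = 0.30). In CpG treated BMDMs 1 gene, *Ifi27l2a*, was called higher in SjSS (1.49 ± 0.14) and 0 lower, where 1.82% and 0.792% of all tested genes were, and the median was -0.14 against 0.01. *Lgals3bp* was also higher (0.39), and *Mx2* (-0.82), *Cmpk2* (-0.62), *Daxx* (-0.53), *Psme2* (-0.51), *Papd7* (-0.40), *Ifitm2* (-0.26) and *Psme1* (-0.23) were lower at any size, where 9.57% of all tested genes were. The count that was lower was 18 without replicate 3 of CpG treated SjSS, 12 without replicate 1 of CpG treated B6 and 6 without each of the other CpG libraries.

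**Figure D4:**
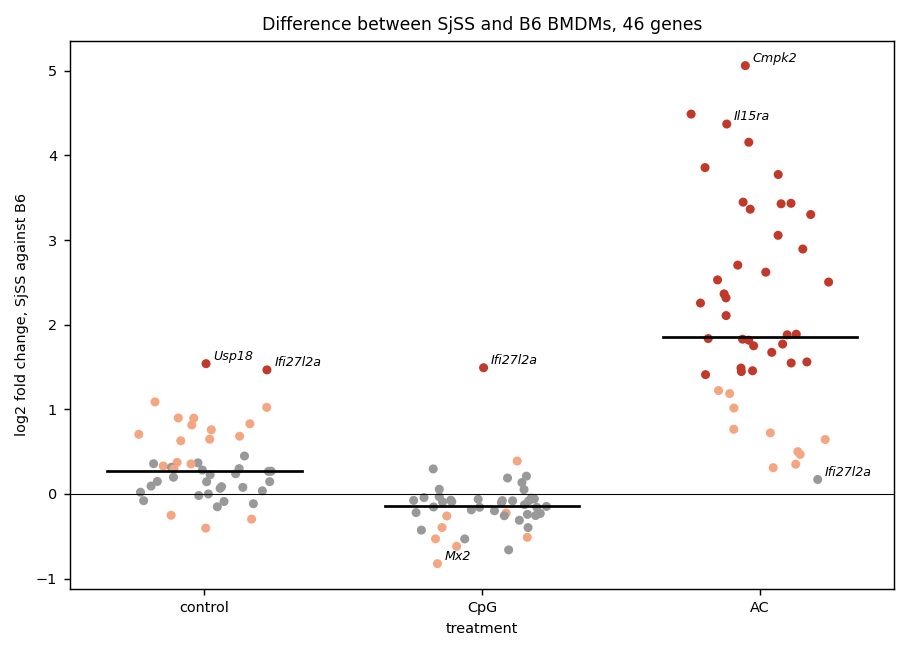
Log2 fold change of SjSS against B6 BMDMs for each of the 46 genes (points) in control, CpG treated and AC treated samples, with the median as a black line. Dark red points were called, light red points passed the test below the fold threshold and grey points did not pass it: the medians are 0.27, -0.14 and 1.86, and *Ifi27l2a* is the gene that is high in control and CpG treated samples and near 0 in AC treated samples.

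ACs and CpG, given for different times, ranked differently in the strains. In B6 BMDMs 1 of the 46 genes, *Ifi27l2a*, was called higher with ACs than with CpG (1.95 ± 0.14) and 1, *Herc6*, lower (-1.32 ± 0.17), where 3.64% and 3.47% of all tested genes were. At any size 31 genes were lower with ACs and 4 higher, *Ifi27l2a*, *Mx2*, *Shisa5* and *Lap3*, where 22.4% and 23.7% of all tested genes were, and the median was -0.40 against 0.03 over all tested genes. *Phf11d* (-1.28), *Psme2* (-1.28), *Phf11b* (-1.24) and *Usp18* (-1.16) were next to *Herc6* and lay just short of the fold threshold. *Herc6* was not called without replicate 2 of CpG treated B6 or without replicate 1 of AC treated B6, and 4 genes were called lower without replicate 1 of CpG treated B6. *Cmpk2* (0.14), *Mx1* (0.04) and *Rsad2* (0.57) did not pass the test in B6 BMDMs, with 95% intervals of -0.30 to 0.58, -0.37 to 0.45 and 0.08 to 1.05.

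In SjSS BMDMs 29 of the 46 genes were called higher with ACs than with CpG and 0 lower, where 5.38% of all tested genes were called higher and 3.8% lower, and the median was 1.54 against -0.02. At any size 45 were higher with ACs, where 25.7% of all tested genes were. *Psme2*, at -0.04 ± 0.08, was the exception (edgeR, adjusted p = 0.68, 95% interval -0.20 to 0.12). The largest gaps were those of *Cmpk2* (5.82 ± 0.26), *Rsad2* (5.72 ± 0.28), *Mx2* (4.76 ± 0.18) and *Il15ra* (4.63 ± 0.20).

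**Figure D5:**
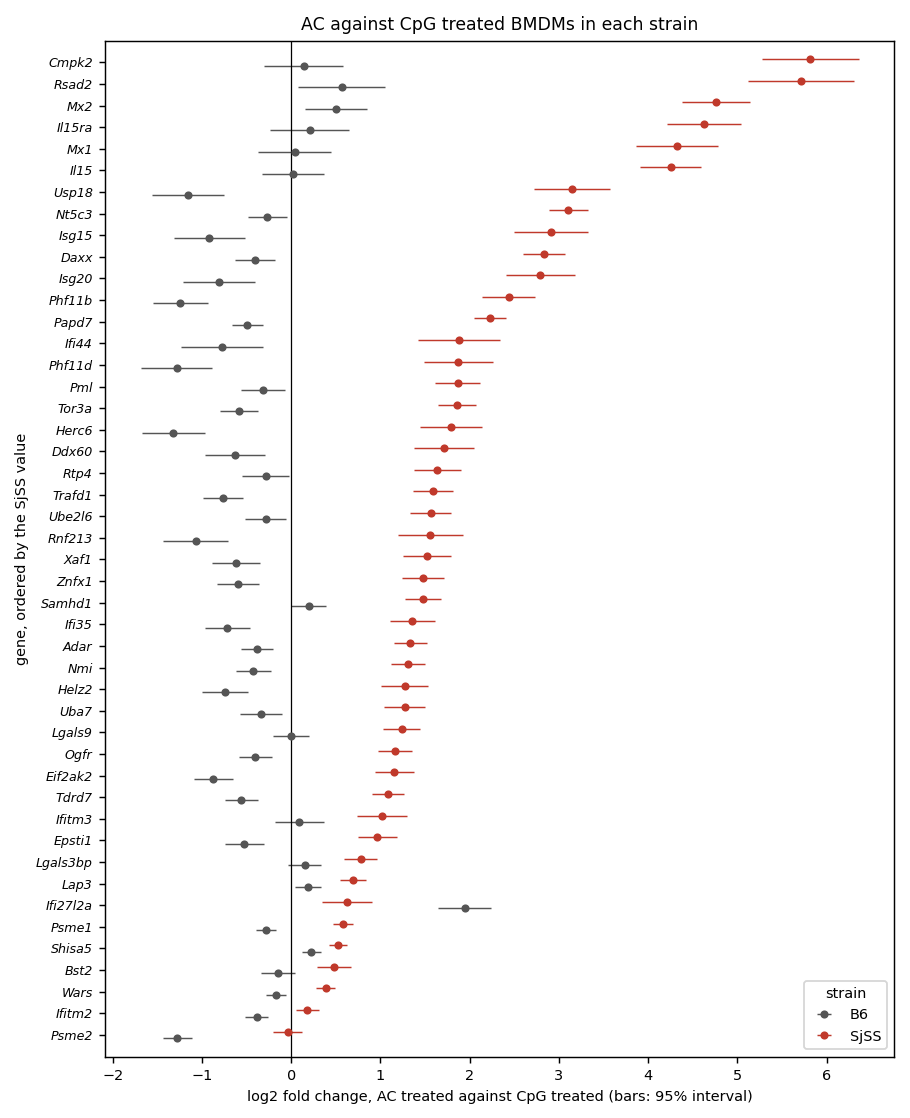
Log2 fold change of AC treated against CpG treated BMDMs for each of the 46 genes (rows, ordered by the SjSS value), in B6 (grey) and SjSS (red), with 95% intervals as bars. All red points but that of *Psme2* lie to the right of 0, whereas 34 of the 46 grey points lie to the left of it.

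Levels can be compared between genes only per length, here as mean CPM per kilobase of merged exons for the 45 genes with an exon length in GENCODE M21. In control B6 BMDMs the highest were *Ifitm2* at 218, *Bst2* at 184 and *Lgals3bp* at 122 CPM per kilobase, and the lowest *Il15ra* at 0.446 and *Mx2* at 0.417. In AC treated SjSS BMDMs *Rsad2* was the highest at 3106, followed by *Cmpk2* at 1689 and *Isg15* at 909 CPM per kilobase, with *Ifitm3* at 537 and *Bst2* at 418 behind them. *Il15ra* was the lowest of that group at 13.8 CPM per kilobase, although its AC response was among the largest.

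Genes that act upstream of the ISGs were also called after ACs. Of 30 genes of interferon production and signalling, 29 were in the table and tested, and of these 5 were called higher after ACs in B6, 16 in SjSS BMDMs and 13 in the interaction, with 0 lower in each, where 2.43%, 7.09% and 4.76% of all tested genes were called higher. At any size 16 of the 29 rose and 6 fell after ACs in B6, where 20.0% and 18.3% of all tested genes did. In SjSS BMDMs 22 rose and 5 fell, against 28.6% and 29.4%. In the interaction 20 were higher and 2 lower, against 19.6% and 18.3%. After CpG 10 rose past the fold threshold in B6, with 1 falling past it, and 4 did so in SjSS BMDMs, with 0 falling, where 5.86% and 4.81% of all tested genes were called higher. At any size 17 of the 29 rose and 7 fell after CpG in each strain. Of all tested genes 28.1% rose and 29.8% fell in B6, and 27.8% and 26.4% in SjSS BMDMs. *Ifnb1*, which encodes interferon beta, was at 0, 0 and 0.0888 CPM in control and 0.0993, 0.303 and 0.111 CPM in AC treated samples of B6. It was at 0.129, 0.177 and 0.0363 CPM in control SjSS and 5.66, 5.45 and 4.85 CPM in AC treated SjSS BMDMs. AC treated SjSS samples were thus the only ones above 1 CPM, and the log2 fold change was 2.44 ± 0.82 in B6, on few counts, and 5.61 ± 0.52 in SjSS BMDMs. Their difference of 3.17 ± 1.304 did not pass the test (edgeR, adjusted p = 0.064). At these low counts the SEs of *Ifnb1*, each worked back from its own test, are rough. With CpG *Ifnb1* was at 0.0202, 0.0533 and 0.109 CPM in B6 and 0.157, 0.124 and 0.0457 CPM in SjSS BMDMs.

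*Stat2* and *Irf9*, which act together at the ISRE, rose with ACs in both strains. *Stat2* rose by 1.01 ± 0.14 in B6 and 2.78 ± 0.14 in SjSS BMDMs and *Irf9* by 0.86 ± 0.08 and 1.39 ± 0.08. The differences between strains were 1.77 ± 0.19 and 0.53 ± 0.11 (edgeR, adjusted p = 6.3e-07 and 8.8e-04). *Irf7*, the factor that amplifies interferon production, rose by 2.57 ± 0.19 and 2.81 ± 0.19, and their difference did not pass the test (0.24 ± 0.26, edgeR, adjusted p = 0.50). *Irf1*, a factor that binds ISRE-like sites without STAT2, rose by 0.81 ± 0.10 in B6 and 4.12 ± 0.11 in SjSS BMDMs, a difference of 3.31 ± 0.14.

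The 46 genes are spread over 15 chromosomes. *Tor3a* lies on chromosome 1 and *Adar* (chr3:89715022-89753447) and *Ifi44* on chromosome 3, the chromosomes of the NOD intervals, and whether they lie within the intervals was not tested. Their differences in control BMDMs were -0.30 ± 0.10, 0.33 ± 0.09 and 0.76 ± 0.24, so that all 3 passed the test and 0 were called. Reads of similar genes may have been split between them by the estimated counting, which makes *Ifitm2* and *Ifitm3*, *Phf11b* and *Phf11d*, and *Mx1* and *Mx2* less certain than the others. The counting is not stated to use strand, and *Papd7* overlaps *Nsun2* on the other strand, with 59735 and 91937 estimated counts over the 18 samples, so that reads of that overlap cannot be assigned. *Znfx1* overlaps *Zfas1*, *Rnf213* overlaps *Gm44935*, *Psme1* overlaps *Emc9*, *Adar* overlaps *Chrnb2* and *Eif2ak2* overlaps *Gm26637* in the same way, with partners at far lower counts.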

How the data were processed

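RNA of 18 BMDM samples, in 6 groups of 3, was sequenced. The authors aligned reads to mm10 with STAR and deposited estimated counts per gene from the Partek E/M method, and 41.1% of the values were not whole at a tolerance of 1e-06. DESeq2 3.13 in the submitters' processing notes was used by the authors and not here. No other sample columns were present, and totals of 30688336 to 57139662 estimated counts per sample set the precision.

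Counts were rounded, filtered with filterByExpr (15789 of 20615 genes), scaled by TMM and fitted in 1 model of 6 group means with edgeR 4.0.16 (R 4.3.3, limma 3.58.1), using the quasi-likelihood test and Benjamini-Hochberg adjustment over all tested genes. Calls needed an adjusted p under 0.05 together with a change of more than 1.3 on the log2 scale. Interactions were differences of 2 responses. The fit was tested on simulated data. Tables were made with pandas 2.3.3 and numpy 2.4.6 in Python 3.11.15, and plots with matplotlib 3.10.9.

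Members and lists were chosen with earlier results of these data known. Per-sample values were given for the ISG15 system, for the largest and smallest AC response in SjSS BMDMs of each other role, for genes called lower in any comparison and for genes called between control BMDMs. *Mx1*, *Pml* and *Il15* were added after their values were seen. Promoters came from RefSeq GRCm38.p6, in which *Usp18*, *Mx1*, *Mx2*, *Il15*, *Ifi27l2a*, *Rtp4*, *Tor3a* and *Wars* had no window here. Exon lengths came from GENCODE M21. Alternatives were DESeq2 1.42.0, DESeq2 size factors, no filter, at least 10 counts in 3 samples, no fold threshold, only the groups compared, a replicate block and leaving out each sample.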

Additional observations from a re-analysis of the deposited data

Results flagged for a closer look

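The response to ACs differed between SjSS and B6 BMDMs for 30 of the 46 genes by the test of the interaction (edgeR's quasi-likelihood test, Benjamini-Hochberg adjusted, with a log2 difference over 1.3), each with the larger response in SjSS BMDMs. The log2 differences of IL-15 and its receptor chain were 4.14 for *Il15ra* and 4.01 for *Il15*. Those of the restriction factors were 3.97 for *Cmpk2*, 3.47 for *Rsad2*, 3.15 for *Mx1*, 3.01 for *Isg20* and 2.62 for *Mx2*. In the ISG15 system they were 2.61 for *Herc6*, 2.60 for *Isg15*, 2.24 for *Usp18* and 1.47 for *Ube2l6*. Nuclear and signalling genes had 3.25 for *Phf11b*, 2.69 for *Phf11d*, 2.56 for *Daxx*, 2.22 for *Trafd1*, 2.01 for *Pml*, 1.76 for *Nmi*, 1.70 for *Epsti1* and 1.57 for *Ifi35*. The RNA-binding and helicase group had 2.08 for *Ddx60*, 1.86 for *Rnf213*, 1.80 for *Eif2ak2*, 1.73 for *Helz2*, 1.55 for *Znfx1* and 1.38 for *Tdrd7*. The remaining genes had 3.15 for *Nt5c3*, 2.72 for *Papd7*, 2.66 for *Tor3a*, 1.86 for *Ifi44* and 1.32 for *Ogfr*.

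The response to CpG differed between strains for 4 genes by the same test, each with the smaller response in SjSS BMDMs, at -1.64 for *Mx2*, -1.68 for *Rsad2*, -1.71 for *Cmpk2* and -2.07 for *Usp18*. Both sets of differences used the same control samples. Groups of 3 samples were not tested for single samples far from the rest.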

How the results depend on the processing

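Of 6624 values of single genes under the alternatives, 6570 kept their status as called or not called, 40 were newly called and 14 were no longer called. Of values called in either fit 0 changed direction, and changes of direction among values called in neither were not counted. Without the fold threshold, the AC response in B6 BMDMs had 37 higher and 1 lower, its interaction with strain 1 lower, the CpG responses 41 higher in B6 and 36 in SjSS BMDMs, and the interaction with CpG 11 lower. SjSS against B6 BMDMs then had 17 higher and 3 lower in control and 2 higher and 7 lower in CpG treated samples, and ACs against CpG had 4 higher and 31 lower in B6 and 45 higher in SjSS BMDMs. With DESeq2's test, and with its size factors in edgeR, 3 genes each were called lower with ACs than CpG in B6 BMDMs, where edgeR with TMM called 1, and with DESeq2's test 2 were higher at any size in place of 4. Leaving out 1 sample at a time, that count ranged from 0 to 4, and the count called lower in the interaction of strain and AC from 0 to 1, the 1 being *Ifi27l2a*. The cause was not tested. With a replicate block 22 of 22 counts stayed within 1.5 times, and the genes lower at any size in the interaction of strain and CpG numbered 18 in place of 11, with 17 by the DESeq2 Wald test and 6 when only the groups compared were fitted. Same-numbered samples of a strain had correlations of 0.0198 to 0.264 between their deviations from the group means and other pairs -0.252 to 0.0745, and 16 of 18 same-numbered pairs were the highest of their row and column. All 3 pairs of control and CpG treated B6 samples were over 0.1 (0.137 to 0.264), but not all 3 of any other pair of groups, and no label ties a number to a mouse, so whether the numbers mark shared mice was not settled and the block stayed an alternative. With 3 samples a group, small differences could be missed.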

Other observations

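Several of the 46 genes lie beside each other. *Rsad2* and *Cmpk2* are 12751 bases apart, *Psme1* and *Psme2* 5911, *Phf11b* and *Phf11d* 6055, *Ifitm2* and *Ifitm3* 53598 and *Mx1* and *Mx2* 72400 bases apart in the deposited coordinates.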
